A study of Mus musculus with 4 samples.

Results

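Some adenosines stayed largely unconverted in the RNA of day 4 mouse retinal organoids of both the wild type and a Mettl3 knockout. A site is counted here as retained when it was listed in all 4 libraries with a level of at least 0.5 in every one. The level is the number of reads that still show A divided by all reads that show A or G. Of 881997 sites in any list, 1690 were in all 4 lists, and 258 of these met the rule (84 with at least 50 reads in every list). The members were thus chosen by the measured levels themselves, so the levels and their change between genotypes are described below without a test.

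The assay was GLORI, in which glyoxal and nitrite deaminate unmodified adenosine so that it is read as G, while N6-methyladenosine (m6A) resists and is read as A. N6,2'-O-dimethyladenosine (m6Am), a modification known from the cap-adjacent nucleotide of mRNA and from spliceosomal snRNA, also resists. The 4 libraries comprised 2 of wild-type (WT) organoids of the Rx:GFP line and 2 of organoids of a Mettl3 knockout (KO) made in that line, all after 4 days of differentiation in medium with 0.1 µM AGN. Per the protocol text the KO cells also carry a Dox-inducible HA-METTL3. The treatment label of every library reads "No" and no doxycycline is recorded. Poly(A) RNA was used after RNA below the column's size limit had been depleted. The labels do not say how many KO clones were used or whether the 2 libraries of a genotype came from separate differentiations, so the p-values below measure only the spread between these libraries.

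METTL3 carries the catalytic activity of the complex that places most m6A on mRNA. Other enzymes are known to methylate adenosine independently of it. METTL16 methylates U6 snRNA and hairpins in the 3' UTR of Mat2a mRNA. METTL5 methylates 18S rRNA, and ZCCHC4 methylates 28S rRNA. PCIF1 writes m6Am next to the mRNA cap, and METTL4 writes it inside U2 snRNA. GLORI alone does not tell m6A, m6Am and incomplete conversion apart.

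The lists held 215850 to 288516 sites per library, with a median coverage of 38 to 41 reads. Every listed site had at least 15 reads, at least 5 unconverted reads and a level of at least 0.1. At the lowest coverage a site could therefore be listed only at a level well above 0.1. The targeted gene Mettl3 had 18 and 15 listed sites in the WT libraries and 20 and 21 in the KO libraries. None of its sites was in all 4 lists, and the position of the lesion is not given in the labels, so this count does not check the labels. Sites listed at a level of at least 0.5 numbered 38166 and 51224 in the WT libraries and 27602 and 29740 in the KO libraries. Of the 5 eye field markers reported here, Six6 had no listed site in any library. Rax had 20 and 35 listed sites in the WT libraries and 0 in both KO libraries. Six3 had 54 and 56 against 14 and 15, Lhx2 38 and 48 against 11 and 5, and Pax6 48 and 70 against 47 and 44. Over the 5 markers there were 160 and 209 listed sites in the WT libraries and 72 and 64 in the KO libraries. The 4 pluripotent cell markers had 32 and 33 against 14 and 14. Of these, Nanog had 9 and 17 against 10 and 9, and the others had fewer in the KO. The 5 markers of other neural regions had 2 and 2 against 7 and 7, all in En1. The 3 neural crest markers had 1 and 4 against 7 and 7, and the 5 mesoderm and endoderm markers 3 and 1 against 0 and 0. A site is listed by its level as well as its reads, so these counts do not measure expression. The part of these differences in the results below was not tested.

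The retained sites were a small share of the sites high in both WT lists and a large share of those high in both KO lists. The single lists held many more sites at 0.5 or more, 38166 and 51224 in the WT and 27602 and 29740 in the KO. Most of these were not high in both lists of a genotype. In both WT lists 5182 sites had a level of at least 0.5, and the 258 retained sites were 4.98% of them. In both KO lists 518 sites did, and the retained sites were 49.8% of them. Depth sharpened this contrast. With at least 100 reads in both KO lists, 56 sites were high in both, and all 56 were retained sites. With at least 100 reads in both WT lists, 1296 sites were high in both, and 42 of them (3.24%) were retained sites. These shares follow from the rule and are given as a description. Among the sites of all 4 lists, 83 were at 0.5 or more in both WT lists and fell below it in at least 1 KO list. These 83 sites serve as the comparison below and are called the WT-high sites.

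**Figure D1:**
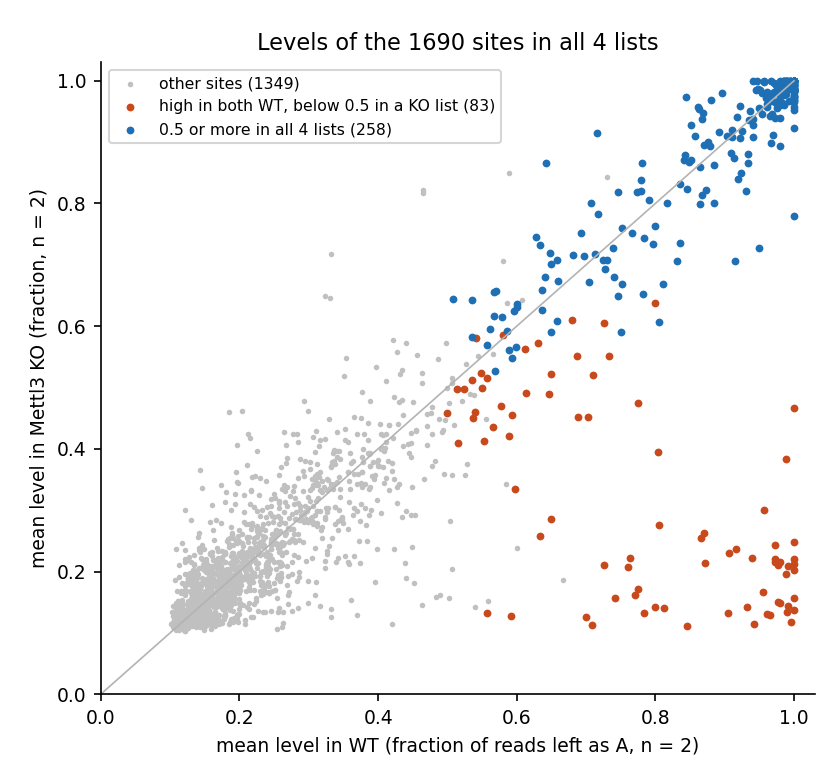
Mean level in the KO libraries (y axis, fraction of reads left as A, n = 2) against mean level in the WT libraries (x axis, n = 2) for the 1690 sites of all 4 lists, with the line of equal levels. The 258 retained sites lie along the line in the upper right, and many of the 83 WT-high sites lie far below it.

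Most retained sites were close to fully unconverted. The level was at least 0.9 in every list at 148 of the 258 sites, at least 0.95 in every list at 117, and exactly 1 in every list at 35. The median level was 0.972 and 0.966 in the WT libraries and 0.963 and 0.968 in the KO libraries. Only 30 sites had a lowest level below 0.6, so few members sat near the threshold. Of the 83 WT-high sites, 26 were at 0.9 or more in both WT lists, and their median level was 0.778 and 0.75 in the WT libraries and 0.250 and 0.275 in the KO libraries.

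The sites just inside the threshold were thinly covered. A plus-strand site opposite Gm17067 (chromosome 7, 42392541) had levels of 0.784, 0.5, 0.731 and 1.00 in WT replicates 1 and 2 and KO replicates 1 and 2, the order used for every set of 4 values below. It was covered by 37, 30, 26 and 15 reads. The site in Gcat had its lowest level at 0.5, as did a site outside any feature on chromosome 5 at 102422580. Just outside the threshold were 3 sites with no feature, on chromosome 8 (112977621), chromosome 9 (34389278) and chromosome 13 (7247276), with lowest levels of 0.494, 0.492 and 0.480.

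Most retained sites lay in no named feature of their own strand. For each site the smallest feature on the same strand that contains it was taken as its host. No named feature of either strand contained 134 of the 258 sites (51.9%), and a further 49 (19.0%) lay only opposite a feature of the other strand. Only features named in the lists were searched. The lists' own intron mark was on 83 of the 134 sites, so these are not shown to lie outside genes. A protein-coding gene on the same strand held 42 sites (16.3%), a pseudogene 18 (6.98%), a long noncoding RNA (lncRNA) 5, an snRNA 4, and a feature whose type was not given 6. The other 1432 sites of all 4 lists were distributed differently: 874 (61.0%) lay in a protein-coding gene, 353 (24.7%) in no feature, 110 (7.68%) only opposite one, 63 (4.40%) in a pseudogene and 0 in an snRNA. The WT-high sites resembled the latter, with 53 of 83 (63.9%) in a protein-coding gene and 17 (20.5%) in no feature. These shares were not tested against each other, and coverage differed between the sets as well. Median coverage per library was 38 to 48.5 reads at retained sites, while the other sites had medians of 127, 152, 145 and 118 reads.

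**Figure D2:**
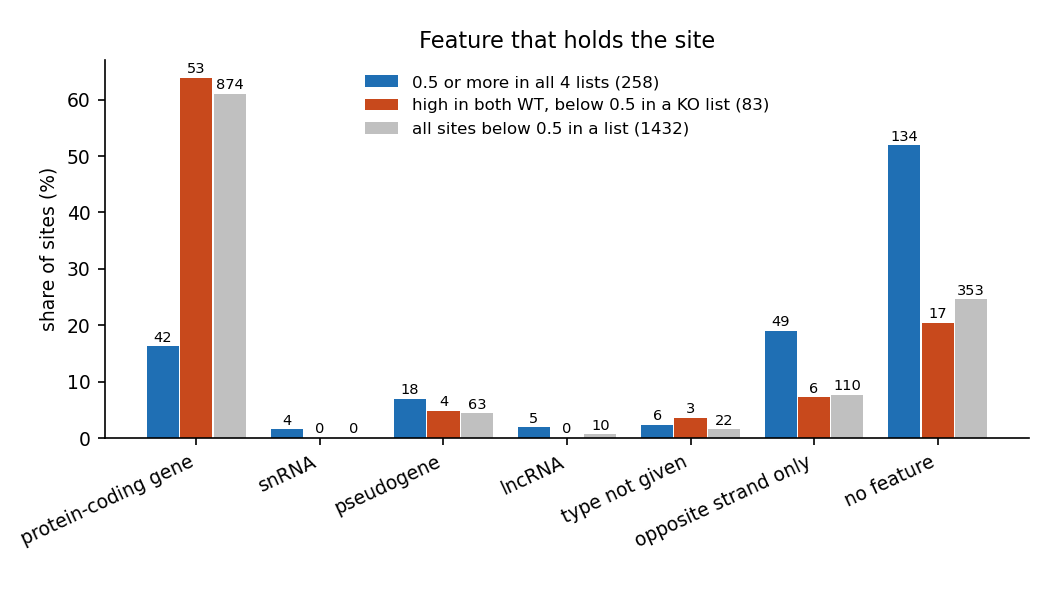
Share of sites (y axis, %) by the kind of feature that holds them, for the 258 retained sites, the 83 WT-high sites and all 1432 sites below 0.5 in a list, which include those 83. Numbers above the bars are counts of sites. Retained sites are mostly in no feature or opposite one, and the other sets mostly in protein-coding genes.

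The 4 retained snRNA sites shared a single position. Gm25360, Gm23971, Gm22973 and Gm25813 are snRNA genes of 191 bases on 4 chromosomes, and each carried its retained site at position 30 of the gene. This is close to the length of U2, the spliceosomal snRNA that pairs with the branch point of introns. The 4 genes are typed only as snRNA here, and whether they are U2 copies was not tested. The lists name 10 snRNA features of 191 bases. In 7 of these at least 1 site was listed, and position 30 was listed in 4, each time in all 4 libraries. The other 12 listed sites in these features were each in fewer than 4 lists, at levels of at most 0.412.

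In Gm23971 (ENSMUSG00000119892, chromosome 11, 101536727, minus strand) the level was 0.982, 0.975, 0.979 and 0.959, from 922, 448, 1738 and 491 reads. The Wilson 95% interval of KO replicate 2, the lowest library, was 0.938 to 0.973. In Gm25360 (ENSMUSG00000118839, chromosome 1, 72265428, plus strand) the level was 0.995, 1.00, 0.991 and 1.00 from 218, 159, 633 and 84 reads. The genotypes overlapped at both sites.

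In Gm22973 (ENSMUSG00000065232, chromosome 12, 59087150, plus strand) the level was 1.00, 1.00, 0.985 and 1.00 from 327, 94, 329 and 156 reads. In Gm25813 (ENSMUSG00000064682, chromosome 8, 52790111, minus strand) it was 1.00, 0.947, 0.990 and 1.00, with as few as 19 reads. The Wilson interval at that lowest coverage was 0.754 to 0.991. U2 genes are near-identical copies. If these 4 genes are such copies, reads could be assigned to any of several, so the 4 sites are not taken as independent observations. No other snRNA site was retained, and none was among the other 1432 sites.

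A site in the 18S-related locus Rn18s-rs5 had the highest coverage of any retained site. Rn18s-rs5 (ENSMUSG00000119584, chromosome 17, 40157244 to 40159092, plus strand) is typed as a pseudogene and is related in sequence to 18S rRNA. Its retained site at 40159055 lies 37 bases before the end of the feature. METTL5 is known to methylate an adenosine near the 3' end of 18S rRNA. The level was 0.864, 0.828, 0.840 and 0.807, from 8702, 9117, 15180 and 5943 reads. The genotypes overlapped. The Wilson intervals of the WT libraries (0.857 to 0.871 and 0.820 to 0.836) did not overlap each other, nor did those of the KO libraries (0.834 to 0.845 and 0.797 to 0.817), so the libraries of a genotype differed by more than counting error. Only 2 other sites of this feature were in any list, at levels of at most 0.103.

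Mat2a was the only gene with 3 or more retained sites on its own strand. It encodes a methionine adenosyltransferase, which makes the methyl donor S-adenosylmethionine, and it is transcribed from the minus strand of chromosome 6 (ENSMUSG00000053907, 72409782 to 72416541). Retained sites lay 154, 373, 488 and 1451 bases before the end of the gene, at 72409936, 72410155, 72410270 and 72411233. The first 2 had levels of 0.575, 0.548, 0.583 and 0.608, and of 0.643, 0.72, 0.717 and 0.714, and the genotypes overlapped at the second. The site at 72410270 had levels of 0.666, 0.765, 0.863 and 0.966 from 1526, 2467, 1427 and 1307 reads. The site at 72411233 had 0.836, 0.90, 0.931 and 0.945 from 829, 1316, 871 and 578 reads. Both KO libraries lay above both WT libraries at 3 of the 4 sites. Only 2 further Mat2a sites were in all 4 lists, at 72410338 and 72410360, with levels of 0.133 to 0.237.

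**Figure D3:**
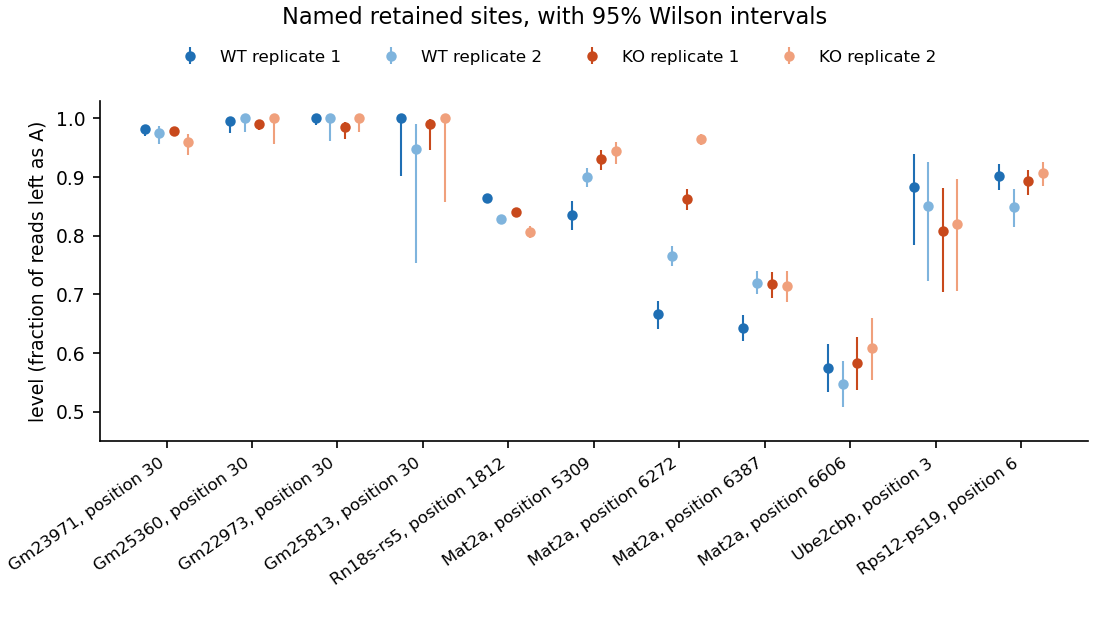
Level (y axis, fraction of reads left as A) at 11 named retained sites in each library, with position counted from the start of the host gene. Points are libraries and bars are Wilson 95% intervals, which cover counting error only. The snRNA sites stay above 0.94 in every library, and the widest gap between genotypes is at position 6272 of Mat2a.

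Within 50 bases of the start of their host, on the same strand, lay 6 retained sites: the 4 snRNA sites, 1 site in Ube2cbp and 1 in the pseudogene Rps12-ps19. Within 300 bases there were 13 of the 75 retained sites with a host on their own strand (17.3%), and 84 of 969 such sites among the others (8.67%). Of the WT-high sites with such a host, 2 of 60 did (3.33%). The hosts differed in kind: protein-coding genes held 42 of the 75 retained sites (56%) and 874 of the 969 others (90.2%). Any site in an snRNA of 191 bases is within 300 bases of its start, and the retained pseudogene hosts had a median length of 883.5 bases. These shares were not split by host type and were not tested. Ube2cbp (chromosome 9, 86347001, minus strand) encodes a ubiquitin ligase, and its site was position 3 of the annotated gene. Its level was 0.882, 0.851, 0.808 and 0.820, from 68, 47, 73 and 61 reads. Both KO values lay below both WT values, and each lay inside the Wilson interval of every WT library (0.785 to 0.939 and 0.723 to 0.926). Rps12-ps19 (chromosome 11, 74962034, minus strand), a pseudogene named after the ribosomal protein gene Rps12, had its site at position 6. The level there was 0.902, 0.850, 0.892 and 0.907 from 728, 459, 800 and 817 reads, and the genotypes overlapped. Reads of Rps12 itself could map to this copy.

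The remaining protein-coding hosts held sites at scattered positions and over a wide range of levels. Of all 42 retained sites in protein-coding genes, 16 were at 0.9 or more in every list, and the lowest level was 0.5. The 42 sites fell in 38 genes. Their number was 69 without KO replicate 2 and 11 with at least 50 reads in every list. They lay at a median distance of 7560 bases from the gene start. Only 5 of them (11.9%) lay within 1000 bases of the gene end. Of the other protein-coding sites 256 of 874 did (29.3%), and of the WT-high ones 13 of 53 (24.5%). The 5 include the Mat2a sites 154, 373 and 488 bases before the end. Sites of the same gene, in any of these sets, are not independent. Outside Mat2a, the 6 sites with the highest lowest coverage were in Col6a6, Atl3, Teddm1b, Nol12, Dab1 and Cga.

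Col6a6, a collagen VI chain, had levels of 0.992, 0.994, 0.996 and 0.989 from 350 to 476 reads (chromosome 9, 105588294). Atl3, a GTPase that shapes the endoplasmic reticulum, had 0.997, 0.917, 0.996 and 1.00 (chromosome 19, 7473817). Nol12, a nucleolar protein, was at 1.00 in all 4 libraries from 142 to 217 reads (chromosome 15, 78823997). None of these 3 sites separated the genotypes.

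Dab1, an adaptor of reelin signalling, had levels of 1.00, 0.970, 0.973 and 0.981 (chromosome 4, 104301170). Cga, the common subunit of the glycoprotein hormones, had 0.979, 0.929, 0.960 and 0.933 (chromosome 4, 34901114). Teddm1b had lower levels, 0.742, 0.75, 0.829 and 0.807 from 176 to 260 reads, with both KO libraries above both WT libraries (chromosome 1, 153752226). Of the genes of the m6A and m6Am enzymes and readers, only Zcchc4 held a site of all 4 lists, and that site was retained. Zcchc4 (chromosome 5, 52976982) had levels of 0.714, 1.00, 0.821 and 1.00 from only 21, 23, 39 and 22 reads.

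Of all 916 sites of the 4 lists in a protein-coding gene on their own strand, the 42 retained ones were 4.59%. Protein-coding genes of cytosolic ribosomal proteins had 18 sites in all 4 lists, of which 0 were retained, and the counts were 1 and 0 for histone genes and 2 and 0 for elongation factor genes. With so few sites, these counts of 0 are near the share over all protein-coding genes. Pseudogenes named after ribosomal protein genes had 9 sites in all 4 lists, and 3 were retained, in Rps12-ps19, Rpl15-ps6 and Rpsa-ps5. Over all pseudogenes, 18 sites of the 4 lists were retained and 63 were not. With only 9 sites, no difference from pseudogenes as a whole is read from this count.

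The 18 pseudogene sites were each in a different pseudogene, 14 were at 0.9 or more in every list, and 8 had at least 100 reads in every list. Rpl15-ps6 had levels of 0.966, 0.972, 0.977 and 0.985, and Rpsa-ps5 was at 1.00 in all 4 libraries. Chosen after their values were seen, Gm10313 had 0.978, 0.961, 0.987 and 0.970 from 430 to 696 reads and Gm5921 had 0.986, 0.948, 0.971 and 0.977 from 598 to 790 reads. Rpsa-ps5, Gm46344 and Gm5921, of 885, 887 and 882 bases, carried their sites at the nearby positions 579, 583 and 597. They were named after the positions were seen, and Gm17971, of 806 bases, carried its site at position 576. Whether their sequences match there was not tested. Pseudogenes share reads with their parent genes where the copies are near-identical.

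Among the 134 sites in no feature, 78 lay over 10000 bases from the feature deposited with them and 16 within 1000 bases, and 78 were at 0.9 or more in every list. Chosen after its values were seen, the most deeply covered of them, on chromosome 17 at 71270737 (plus strand), had an intermediate level. It was 0.516, 0.556, 0.580 and 0.585 from 3266, 4037, 6329 and 3700 reads, with both KO libraries above both WT libraries. Of the 49 sites opposite a feature, 41 lay opposite a protein-coding gene, and the sites fell opposite 47 features. The one with the highest lowest coverage, named after its values were seen, lay opposite Il1rapl1 on chromosome X at 86282030 with levels of 0.959, 0.914, 0.945 and 0.957.

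**Figure D4:**
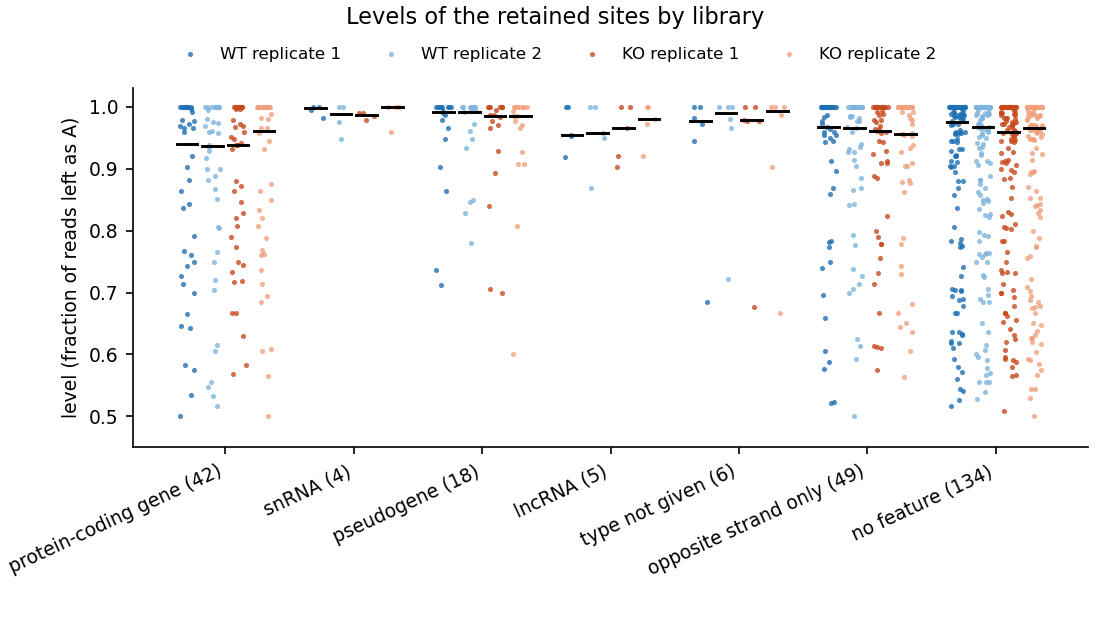
Level (y axis, fraction of reads left as A) of each of the 258 retained sites in each library, by the kind of feature that holds it. Points are sites, spread sideways at random for visibility, and black bars are medians. The lower edge at 0.5 is set by the rule, and the medians of the 4 libraries lie between 0.936 and 1.00 in every class.

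Neighbouring sites, strand and the intron mark were not used by the rule. Of the retained sites, 196 of 258 (76.0%) had no other listed site of any library within 50 bases on the same strand, where 329 of 1432 other sites (23.0%) and 25 of 83 WT-high sites (30.1%) had none. The counts were also taken at higher coverage and within feature classes. Among sites with at least 100 reads in every list, 28 of 36 retained sites (77.8%) and 110 of 683 others (16.1%) had no neighbour. Within protein-coding genes the counts were 34 of 42 and 106 of 874. The contrast was smaller in no feature, 93 of 134 (69.4%) and 154 of 353 (43.6%), and opposite a feature, 40 of 49 (81.6%) and 52 of 110 (47.3%). Of the WT-high sites, 8 of 53 in protein-coding genes, 9 of 17 in no feature and 5 of 6 opposite a feature had no neighbour. On the plus strand lay 169 of 258 retained sites (65.5%), 794 of 1432 others (55.4%) and 48 of 83 WT-high sites (57.8%). The intron mark of the lists was on 134 retained sites (51.9%), 620 others (43.3%) and 45 WT-high sites (54.2%). It was also on 2 of the 4 retained snRNA sites and 10 of the 18 retained pseudogene sites, so it need not mean an intron of the host named here. None of these shares was tested.

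Retained sites were rarely next to each other. Only 6 of the 258 had another retained site within 50 bases, and they formed 3 pairs of adjacent bases (10 sites without WT replicate 1 and 12 without KO replicate 2), on chromosome 2 at 58835474 and 58835475, on chromosome 2 at 59919273 and 59919274 opposite Baz2b, and on chromosome 4 at 120025316 and 120025317. The 2 bases of a pair had the same coverage in each library, as reads that cover both would give, so they are not independent. In the first pair the levels were 0.632, 0.556, 0.565 and 0.529 at 58835474 and 0.947, 1.00, 0.957 and 0.971 at 58835475. Retained sites were found on all 21 chromosomes that had a site in all 4 lists.

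The levels changed little between genotypes, as the rule in part requires. The median difference of the mean levels, KO minus WT, was 0 over the 258 sites, and the differences ran from -0.22 to 0.22. The median size of the difference was 0.0167, and the median SD between the replicates of a genotype was 0.0146. The rule admits only sites that are high in every list, which limits both values. Nothing is therefore read from their closeness. The mean level was lower in the KO at 116 sites, higher at 106 and equal at 36. Both KO libraries lay below both WT libraries at 36 sites and above them at 27. Over all 1690 sites, 19.7% and 16.6% did so, and since the rule uses these levels nothing is read from the comparison. The WT-high sites had a median difference of -0.553, which the rule for them also fixes in part.

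A difference of more than 0.1 was seen at 15 retained sites, 9 lower and 6 higher in the KO. The 6 largest falls were at sites with no protein-coding host on their strand. The largest was opposite the feature PTPRG (chromosome 14, 10547398), at 0.964, 0.935, 0.789 and 0.667 from 28 to 38 reads, and the site on chromosome 6 at 130942883 had 1.00, 1.00, 0.593 and 0.966, so that 1 KO library accounted for most of its fall. The others were on chromosome 5 at 134364941, chromosome 1 at 119188713 and 193527493, and chromosome 13 at 90947663. The last was the best covered of these, with 0.787, 0.835, 0.699 and 0.637 from 89 to 171 reads.

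The 6 largest rises were at the site opposite Gm17067, at Mat2a 72410270, in Gcat, in Wasf3, and at sites in no feature on chromosome 4 (7391836) and chromosome 10 (15153967). Gcat, an enzyme of threonine breakdown, had levels of 0.5, 0.516, 0.789 and 0.5, so that only KO replicate 1 stood apart, on 19 reads. Wasf3, a regulator of actin, had 0.75, 0.938, 0.947 and 1.00 on 16 to 20 reads. At the site opposite Gm17067, KO replicate 2 was the highest library on 15 reads. The site on chromosome 10 had 0.544, 0.528, 0.667 and 0.620 on 50 to 89 reads, with both KO libraries above both WT libraries.

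Where coverage was deep, the changes were smaller. Of the 36 retained sites with at least 100 reads in every list, 21 were at 0.9 or more in every list, the median size of the difference was 0.0104, and 4 differed by more than 0.05. These were the Mat2a sites at 72410270 and 72411233 and the Teddm1b site, all higher in the KO, and a site on chromosome 12 at 16578423, lower by a difference of -0.0836. By feature, 14 of the 36 were in no feature, 8 in protein-coding genes, 8 in pseudogenes, 5 opposite a feature and 1 in an snRNA.

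Coverage, the number of reads that cross a site, was not used by the rule beyond the minimum for listing, and was tested. In bulk organoids fewer cells of a type and less RNA per cell cannot be told apart. edgeR's quasi-likelihood test was fitted to the coverage of all 1690 sites with Benjamini-Hochberg adjustment over all of them. With an adjusted p under 0.05 as the threshold, coverage rose in the KO at 0 retained sites and fell at 0. Over the whole table it called 1 site higher and 3 lower, 0.0592% and 0.178% of the sites tested. At an unadjusted p under 0.05 it gave 16 retained sites higher and 8 lower (6.20% and 3.10%), against 5.86% and 8.05% of all sites. DESeq2 called 0 retained sites, and over the whole table it called 12 sites higher and 42 lower (0.71% and 2.49%). The median log2 change of coverage was 0.26 over the retained sites and 0.02 over all sites. Over the retained sites it was 0.15 without WT replicate 2, and with scaling by the total coverage of each list it was 0.65, against 0.41 over all sites. With that scaling edgeR called 1 retained site higher and 0 lower, and of all 1690 sites it called 22 higher and 6 lower (1.3% and 0.355%). In edgeR's main fit, without that scaling, the log2 change of coverage was above 0 at 183 of 258 retained sites (70.9%) and at 875 of all 1690 (51.8%).

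By feature, the median log2 change of coverage was 0.72 over the 4 snRNA sites, 0.53 over the 5 lncRNA sites, 0.31 over the sites opposite a feature, 0.27 over those in no feature, 0.18 over those in protein-coding genes, 0.18 over the 6 in features whose type was not given and 0.13 over those in pseudogenes. The differences between features were not tested. Among the other 1432 sites it was 0.24 opposite a feature, 0.14 in no feature and -0.12 in protein-coding genes. The 4 Mat2a sites had lower coverage in the KO, by -0.46 to -0.56 on the log2 scale, with adjusted p from 0.342 to 0.414 in edgeR's test.

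The smallest adjusted p among retained sites was 0.181 in edgeR's test, at a site in no feature on chromosome Y (42488358). It was covered by 295, 344, 168 and 134 reads, a log2 change of -1.06 ± 0.27 (SE), with both KO libraries below both WT libraries, and its level was 0.988 or more in each. Next was the site on chromosome 16 at 7920233, with 468, 519, 306 and 213 reads and a log2 change of -0.92 ± 0.25 (edgeR adjusted p 0.203). Another 7 of the smallest had edgeR adjusted p from 0.260 to 0.315. They were sites in the pseudogene Gm5258, in the translation initiation factor gene Eif4g2, in the proteasome subunit gene Psmd7 and in the NF-kB regulator gene Nfkbid, and sites in no feature on chromosome 2 (89979915), chromosome 5 (70129597) and chromosome 6 (109756921). Of these 7, Eif4g2 had lower coverage in the KO and the others higher.

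The snRNA and 18S-related sites depended on 1 library in this test. KO replicate 1 had the highest coverage at all 4 snRNA sites and at Rn18s-rs5. Without KO replicate 2, edgeR called Gm25360, Gm23971, Gm25813 and Rn18s-rs5 higher in the KO, by log2 changes of 1.61 ± 0.39, 1.18 ± 0.30, 1.74 ± 0.44 and 0.64 ± 0.19 (SE; adjusted p 0.00300, 0.00451, 0.00515 and 0.0229). That fit called 27 of all 1690 sites higher and 52 lower (1.6% and 3.08%), so the 4 of 258 retained sites were near the share over all sites. With both KO libraries the same sites had log2 changes of 0.83 ± 0.74, 0.61 ± 0.56, 1.12 ± 0.63 and 0.21 ± 0.35. Without KO replicate 1, edgeR called the site on chromosome 5 at 70129597 higher (adjusted p 0.00306), in a fit that called 31 of all sites higher and 76 lower (1.83% and 4.5%). In each of these fits the single KO library left was assumed to vary like the WT libraries.

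**Figure D5:**
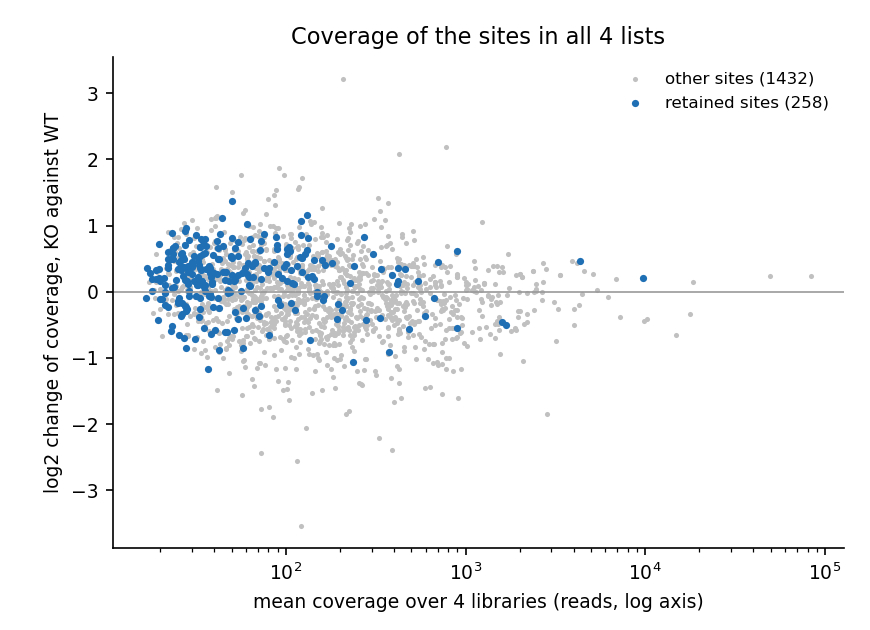
Log2 change of coverage, KO against WT (y axis), against mean coverage over the 4 libraries (x axis, reads, log axis) for the 1690 sites of all 4 lists. Retained sites sit mostly at low coverage, between changes of -1.17 and 1.36, and 183 of 258 lie above 0.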

How the data were processed

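Each of the 4 libraries has 1 list of called sites. Per the file headers, the deposited counts give, for each site, all reads with A or G (the coverage) and those still read as A, and the level was computed as the second over the first. The deposited fraction of unconverted reads and p-value per site were used only to check the lists. The authors' aligner, molecular identifier handling and caller are not given in the sources used here, so reads may be PCR copies and Wilson 95% intervals cover counting error only. Between 28 and 53 repeated entries per list were collapsed.

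Sites were joined by chromosome, position and strand. Hosts came from all 29181 features named in the lists, and types from RefSeq symbols, which matched 21540. The submitters' processing notes name mm10, but of 3160 listed positions in GRCm38 promoter windows only 740 (23.4%) held A. Counted from the starts of genes of equal length, 127 of 130 did. The lists are therefore not on GRCm38, their build is not settled here, coordinates are printed as given, and no sequence could be read for the members.

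Coverage was tested with edgeR 4.0.16 (TMM, quasi-likelihood) in R 4.3.3, with DESeq2 1.42.0 as an alternative. On simulated counts for 1690 sites it recovered 43 of 50 rises and 39 of 50 falls of 1 log2 unit, 50 of 50 and 49 of 50 of 2 units, with 5 false calls. The simulated counts were given a lower dispersion than the data, whose common dispersion was 0.0657. These rates therefore do not measure how many such changes the test would find in the data. Named sites were small RNA hosts, the 10 best covered protein-coding ones, the 6 largest falls and rises, sites within 50 bases of a start, hosts with at least 3 sites, the 10 smallest p of coverage, threshold neighbours and listed genes. The members and lists were chosen with earlier results of these data known. One marker and one of the named sites are not reported here.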

Additional observations from a re-analysis of the deposited data

How the results depend on the processing

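The number of retained sites, 258, was 310 at a level of at least 0.4 and 228 at 0.6, and leaving out 1 library gave 296 to 333. It was 84 with at least 50 reads in every list, since fewer sites then qualify. Sites in a protein-coding gene numbered 42, were 11 with at least 50 reads, and ranged from 50 to 69 without 1 library, the highest without KO replicate 2. With the deposited feature they numbered 44. Sites near a feature start, 13 within 300 bases, numbered 6 within 50 bases and 17 by the deposited feature, and 14 to 16 without 1 library. Retained sites with another within 50 bases numbered 6, and 6 to 12 without 1 library, with 10 without WT replicate 1 and 12 without KO replicate 2. The median level difference was 0 and at most 0.00197 under every alternative run. Retained sites called for coverage by edgeR numbered 0, 1 with scaling by the total coverage of each list, and 0 to 4 without 1 library. Over all sites that scaling called 22 higher and 6 lower (1.3% and 0.355%), and leaving out 1 library called 0 to 31 higher and 0 to 76 lower. The scaling also moved the median of all sites to 0.41 and of the retained sites to 0.65. The replicate block gave 0 calls (13 at an unadjusted p under 0.05), and the same-numbered libraries deviated with a correlation of -0.000659, so the numbers were not taken to pair the samples. DESeq2 called 0, with 5 at an unadjusted p under 0.05. The cause of these shifts was not tested where none is named. Depth limits single sites: 222 of the 258 had fewer than 100 reads in a list.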
